A study of Mus musculus with 10 samples.

Results

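Cell division in mouse skin was examined through 35 genes of the cell cycle. The group holds 13 genes of the passage from G1 to S phase and of DNA replication (Ccne1, Ccne2, Cdc6, Mcm2, Mcm3, Mcm4, Mcm5, Mcm6, Mcm7, Pcna, Tyms, Rrm1 and Rrm2) and 22 genes of G2 and mitosis (Mki67, Top2a, Ccnb1, Ccnb2, Ccna2, Cdk1, Birc5, Bub1, Bub1b, Aurka, Aurkb, Plk1, Cenpf, Cenpa, Ube2c, Cdc20, Kif11, Kif20a, Tpx2, Nusap1, Hmmr and Prc1). The genes were taken by symbol, and all 35 are among the 23282 entries of each deposited table. The tables come from 10 libraries of whole skin of C57BL/6 mice aged 5 months, 5 from wild-type mice (WT) and 5 from mice lacking STAT3 in keratinocytes (STAT3cKO), where STAT3 is a transcription factor activated by cytokine and growth factor receptors. The libraries were made from Trizol RNA with Lexogen's QuantSeq chemistry, in which reads come from 3′ transcript ends, so levels of different genes can be set side by side without regard to gene length. The sources used here do not give the promoter behind the deletion, the sex, the litter, the hair phase or a batch. Since nothing states that each library is a separate mouse, the p-values reflect spread among libraries, which may be partly technical. Values below are the deposited ones, which behave as log2 of scaled reads plus 1, and a difference is STAT3cKO minus WT on that scale.

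Cells enter S phase when E2F transcription factors switch on the genes that license replication origins, unwind DNA and supply nucleotides. In G2, B-Myb and FoxM1 act with the MuvB complex on a further set of genes, which build the spindle, drive entry into mitosis and then destroy the mitotic cyclins. In skin, division takes place in the basal layer of the epidermis and, while a follicle grows, at high density in the hair matrix, whose progeny form the inner root sheath and the hair shaft. Krt71 and Krt25, keratins of the inner root sheath, therefore serve as a measure of hair growth, and the mean of their values in a library is called the hair level here. In bulk skin, fewer dividing cells and less transcript per dividing cell cannot be told apart.

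The estimated depth was 7168707 to 18541827 reads per library, with 4 deeper libraries (WT 1, WT 2, STAT3cKO 4 and STAT3cKO 5). STAT3cKO 2 stood apart by the share of tested genes without a single read, at 22.69%. WT 3 came next, at 11.04%, close to the range of 0.72% to 9.51% in the other 8 libraries. STAT3cKO 2 also differed from the other 9 libraries in sex-linked transcripts, with Ddx3y at 10.62 and Xist at 0.06. Stat3 itself lay at 9.08 to 10.29 in WT and 9.49 to 10.81 in STAT3cKO, a difference of 0.41 (limma adjusted p = 0.70). Whole skin holds cells that keep the gene, and which exons were removed is not stated, so the 3′ reads do not check the labels. A value of up to 0.08 stands for no read in these tables.

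No cell cycle gene passed the threshold between the genotypes. A gene was tested when its value reached 5 in at least 5 libraries, which 27 of the 35 genes did (10 of 13 S phase genes and 17 of 22 mitosis genes). Of these, 0 were called at an adjusted p under 0.05 (limma, adjusted over 11536 genes), where 0.988% of all tested genes were called. Only Cdk1 had an unadjusted p under 0.05, 1 of 27 genes against 10.9% of all tested genes. In 0 of the 27 genes did the 5 WT and 5 STAT3cKO values fail to overlap, against 3.42% of all tested genes. Adding the hair level to the fit left 0 called, where 1.34% of all genes were called, and again Cdk1 alone at an unadjusted p under 0.05, where 11.4% of all genes had one.

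The size of the differences is known only within wide limits. Differences of the S phase genes had a median of 0.70, with 8 of 10 above 0, and those of the mitosis genes a median of 0.41, with 11 of 17 above 0. Over all tested genes the median was -0.16, with 43.8% above 0, and it moved to -0.05 after quantile normalization. With the hair level in the fit, the medians were 0.58 for the S phase genes (7 of 10 above 0), -0.15 for the mitosis genes (8 of 17 above 0) and -0.18 for all genes. With a library left out, these medians ran from 0.36 (without WT 3) to 1.03 (without WT 4) for the S phase genes and from -0.37 (without WT 3) to 0.60 (without STAT3cKO 2) for the mitosis genes. In the fit without the hair level, leaving out WT 4 gave 1.24 for S phase and 1.09 for mitosis. There the mitosis median was also -0.03 without STAT3cKO 5 and -1.33 with the mean of Krt5 and Krt14, the keratins of basal keratinocytes, as a covariate. No direction can therefore be given for the mitosis genes as a group. Marker lists of other cell types differed between the genotypes in the same fits. All 7 adipocyte markers were lower in STAT3cKO at an unadjusted p under 0.05, with a median difference of -2.45, 1 called and 5 called with the hair level in the fit. Of 5 tested sebocyte markers 4 were higher in STAT3cKO, with differences from -2.78 to 4.31 over the list. Of these, 2 were called higher, and 3 with the hair level. Of 6 suprabasal keratinocyte markers 5 were higher at an unadjusted p under 0.05, with 0 called. Of 7 fibroblast markers 1 was called lower in each fit, with a median difference of -0.89 and 3 above 0. Of 6 tested macrophage and monocyte markers 0 lay above 0 and 2 were lower at an unadjusted p under 0.05, with 0 called. Over all tested genes 0.988% were called, 1.34% with the hair level, and 10.9% had an unadjusted p under 0.05. The part of these cell types in the cell cycle values was not tested. The members that passed the filter include genes that reached it through a few libraries with high values, so these counts describe the list and test nothing.

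**Figure D1:**
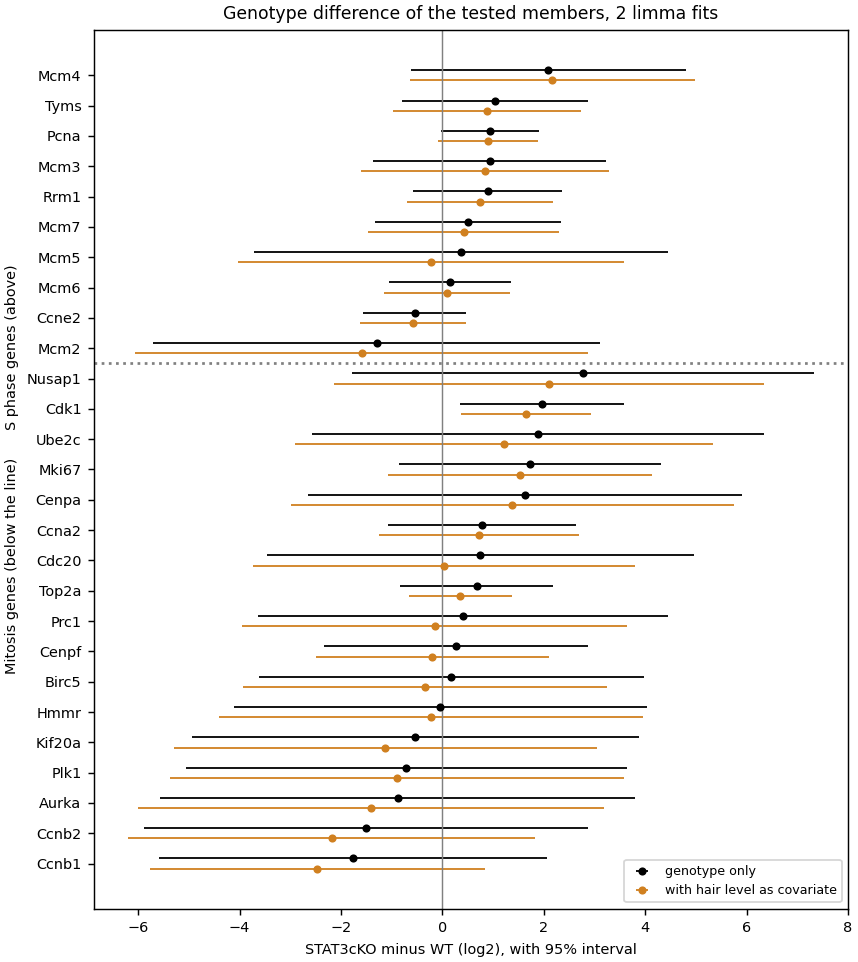
Difference STAT3cKO minus WT (log2, horizontal axis) of the 27 tested cell cycle genes, with 95% intervals from 2 limma fits, genotype only in black and with the hair level as a covariate in orange. S phase genes are above the dotted line and mitosis genes below it, and Cdk1 is the gene whose intervals lie above 0 in both fits.

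The hair level varied widely within both genotypes, and the libraries with the highest mitosis means were those with the highest hair levels. The hair level was 0.0, 0.0, 8.13, 15.75 and 5.96 across WT 1 to 5, and 12.97, 0.06, 14.86, 0.39 and 11.67 across STAT3cKO 1 to 5. High and low libraries thus occurred in each group, and the group means of 5.97 ± 6.55 and 7.99 ± 7.18 (SD, n = 5 each) did not differ beyond the spread (exact permutation test, two-sided, p = 0.643). The mean over the 22 mitosis genes was 4.45, 5.13, 2.76, 8.47 and 4.5 across WT 1 to 5, and 7.11, 2.64, 6.32, 4.3 and 7.35 across STAT3cKO 1 to 5. The 4 libraries with a hair level above 11 had mitosis means of at least 6.32, and the other 6 had means of at most 5.13. For the 13 S phase genes the library means were 5.28, 5.81, 5.25, 8.4 and 5.79 across WT 1 to 5, and 7.62, 5.39, 7.25, 6.67 and 7.35 across STAT3cKO 1 to 5. The same 4 libraries were at 7.25 or more, and the others reached 6.67 at most. Over the 10 tested S phase genes alone this order did not hold: STAT3cKO 4, with a hair level of 0.39, was at 7.99, level with STAT3cKO 5 (7.99) and above STAT3cKO 3 (7.24). Over the 17 tested mitosis genes it held, with the 4 libraries at 7.24 or more and the others at 6.04 or less. WT 4, the library with the highest hair level, was the highest of all 10 in both classes.

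**Figure D2:**
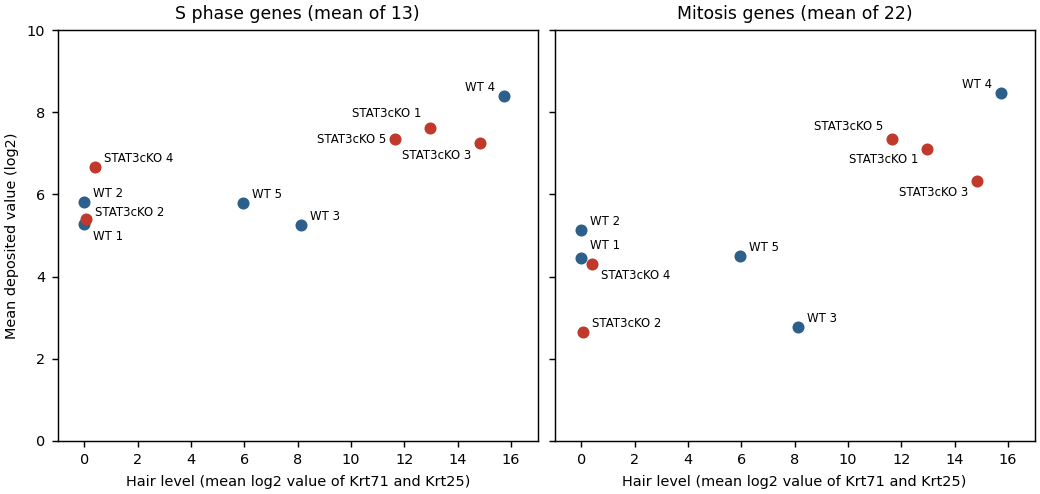
Mean deposited value (log2) of the 13 S phase genes (left) and the 22 mitosis genes (right) against the hair level (mean log2 value of Krt71 and Krt25), 1 point per library, WT in blue and STAT3cKO in red. WT 4 and STAT3cKO 1, 3 and 5 lie at the upper right in both panels, and WT 3 (hair level 8.13) has a low mitosis mean of 2.76.

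**Figure D3:**
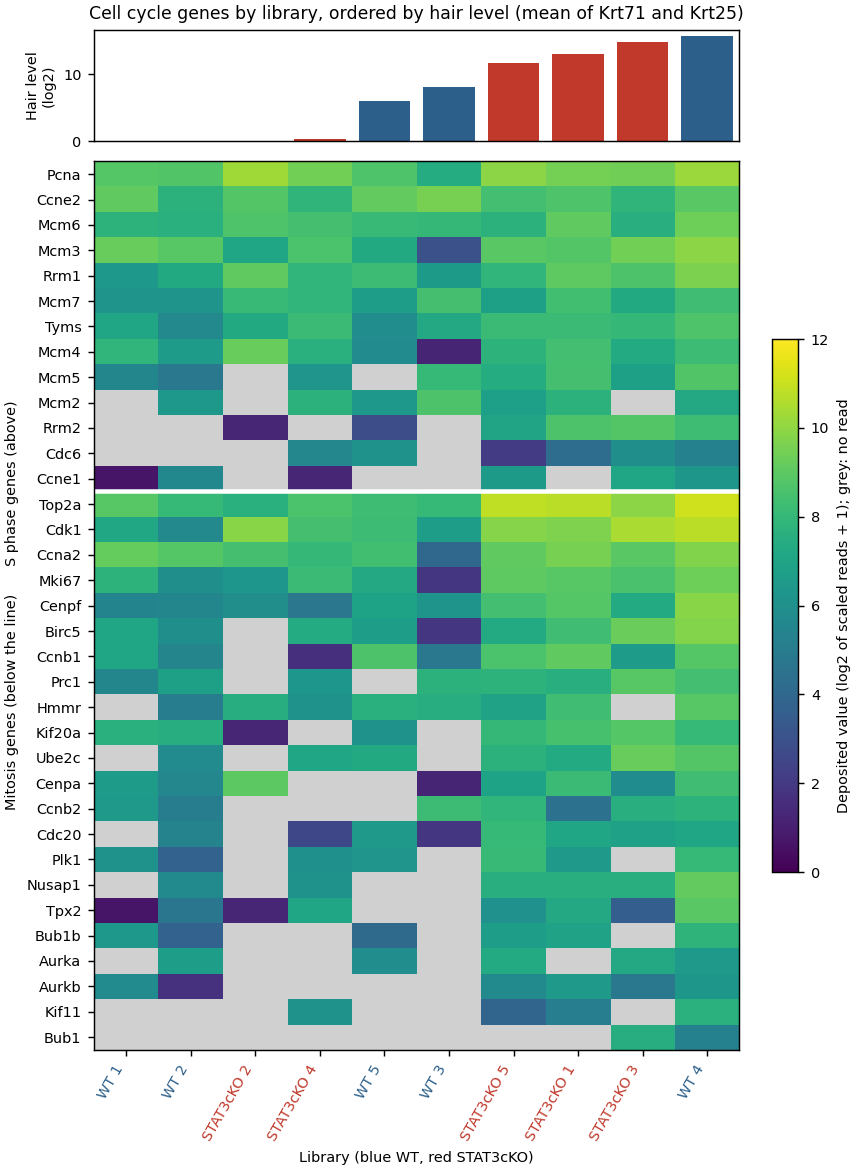
Deposited values (log2, colour) of the 35 genes in the 10 libraries, ordered from the lowest to the highest hair level (bars), with grey for no read, S phase genes above the white line and mitosis genes below it. Grey cells are most frequent in STAT3cKO 2 (17 of 35 genes) and WT 3 (13 of 35), and WT 4 has none.

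The same order was read gene by gene within each genotype. Among the WT libraries, WT 4 was the highest for 15 of the 17 tested mitosis genes and 7 of the 10 tested S phase genes, where it was the highest for 22.9% of all tested genes. With the genes below the filter included, the counts were 20 of 22 and 9 of 13. STAT3cKO 1, 3 and 5 all lay above STAT3cKO 2 and 4 for 11 of the 17 tested mitosis genes and 2 of the 10 tested S phase genes, where 13.9% of all tested genes had this order. Counts were also taken without WT 3 or STAT3cKO 2, the libraries with the most tested genes without a read. WT 4 was the highest without WT 3 for 16 of 17 mitosis genes and 9 of 10 S phase genes (28.5% of all genes), and STAT3cKO 1, 3 and 5 lay above STAT3cKO 4 for 14 of 17 and 2 of 10 (25% of all genes). Among genes with a mean of at least 7, which leaves 4 mitosis and 8 S phase genes, the counts were 4 of 4 and 6 of 8 for WT 4 (22.4% of such genes), and 3 of 4 and 1 of 8 for the STAT3cKO order (11.9%). The difference between the classes was not tested.

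In the fit with genotype and hair level, the slope on the hair level was above 0 in all 17 tested mitosis genes. The slope is the change in log2 value per unit of hair level. Its median was 0.256 over the mitosis genes, 0.044 over the S phase genes (9 of 10 above 0) and 0.013 over all tested genes (56.9% above 0). In 8 mitosis genes and 0 S phase genes the slope exceeded 2 of its standard errors. The share of all tested genes past this cut was not counted, so these numbers describe the lists only. Those 8 genes, with their slopes, were Top2a 0.161 (SE 0.039), Cdk1 0.151 (SE 0.049), Ccnb1 0.346 (SE 0.126), Cenpf 0.230 (SE 0.087), Cdc20 0.352 (SE 0.144), Ccnb2 0.339 (SE 0.153), Ube2c 0.331 (SE 0.157) and Nusap1 0.332 (SE 0.162). Mcm5 of the S phase genes lay just under the cut, at 0.289 (SE 0.145). The 3 S phase genes below the filter had slopes of 0.529 (Rrm2), 0.231 (Ccne1) and 0.209 (Cdc6). The 5 mitosis genes below it had slopes of 0.180 to 0.274. In genes with a mean of at least 7 the median slopes were smaller, at 0.125 for mitosis, 0.033 for S phase and 0.002 for all genes. These slopes are descriptions, since the hair level was measured in the same libraries.

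**Figure D4:**
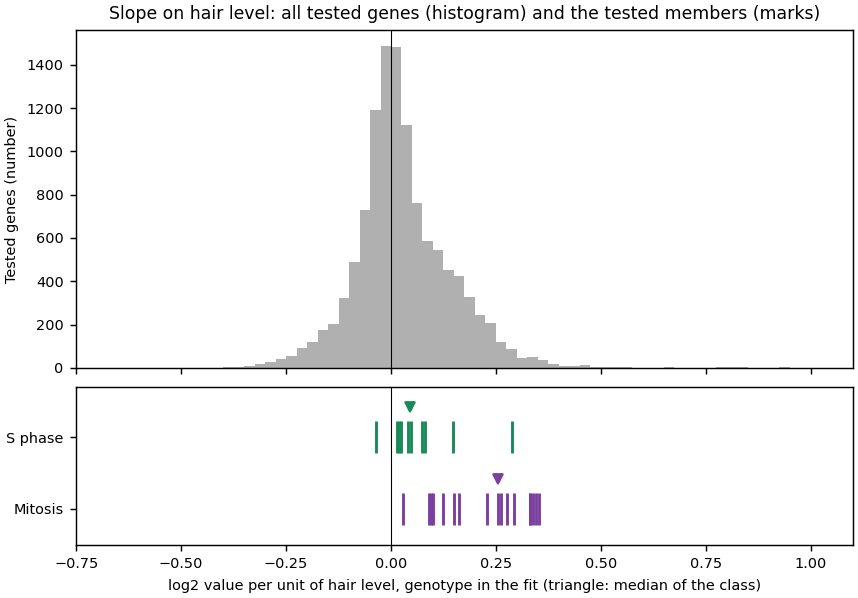
Slope on the hair level (log2 value per unit, genotype in the fit) of all tested genes (grey histogram, number of genes) and of the tested S phase and mitosis genes (marks below, triangles at the class medians of 0.044 and 0.256). All 17 mitosis marks lie to the right of 0.

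Markers of other cell types also varied with the hair level. The 7 hair matrix markers had a mean of 1.58, 2.82, 1.59, 8.94 and 4.59 across WT 1 to 5, and 5.21, 1.36, 7.86, 1.97 and 5.49 across STAT3cKO 1 to 5, with 7 of 7 slopes above 0. Their summed unlogged values ran from 246 to 10718 in WT and from 244 to 9111 in STAT3cKO, and none of the 7 was without a read in all libraries. The 7 basal keratinocyte markers had 7 of 7 slopes above 0 as well, with sums of 8745 to 30835 in WT and 19498 to 54937 in STAT3cKO. Their slopes were small, with a median of 0.040, against 0.432 for the hair matrix markers. Of all genes with a read, 58.4% had a slope above 0, with a median of 0.016. The mean of Krt5 and Krt14 was 12.05, 11.34, 12.3, 13.39 and 13.13 across WT 1 to 5, and 14.28, 12.6, 13.69, 12.76 and 13.67 across STAT3cKO 1 to 5, a group difference of 0.96 (exact permutation test, two-sided, p = 0.103). Within STAT3cKO it was higher in libraries 1, 3 and 5 than in 2 and 4, as the hair level was. The 7 adipocyte markers went the other way, with 0 of 7 slopes above 0 and sums of 127455 to 686965 in WT and 47046 to 258341 in STAT3cKO. With the mean of Krt5 and Krt14 in the fit, the median mitosis slope was 0.145 and the median S phase slope -0.007. The part of these cell types and of missing reads in the values of the cell cycle genes was not tested.

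Promoter letters were compared between the classes. Their relation to the expression values was not tested. RefSeq windows on build GRCm38.p6 (the same assembly as mm10), from 250 bases before to 50 after the start, were found for 29 of the 35 genes (11 S phase and 18 mitosis), 1 window per gene. They hold no entry for Aurkb, Ccna2, Ccne2, Kif20a, Mcm4 and Tpx2. Both strands were searched for the letters of the cell cycle homology region, at which MuvB binds (TTTGAA or TTCGAA), for the box read by NF-Y (CCAAT) and for forms of the E2F letters (GGCGGGAA, GCGGGAAA, GCGCGAAA and GCGCCAAA). E2F forms can overlap each other, and in Mcm7 an E2F form and a CCAAT share bases. Cell cycle homology letters were in 15 of 18 mitosis windows (83.3%) and 2 of 11 S phase windows (18.2%), against 19.4% of 27025 genes. CCAAT was in 16 of 18 mitosis windows (88.9%) and 8 of 11 S phase windows (72.7%), against 37.9% of genes. E2F letters were in 1 of 18 mitosis windows (5.6%, Cdk1) and 6 of 11 S phase windows (54.5%), against 3.6% of genes. A match describes the letters and is no evidence of binding. Shown are the stretches from 120 bases before to 10 after the start of 3 S phase genes and of 5 mitosis genes described below, 5′ to 3′ on the gene's strand, with the searched letters of either strand in capitals. Rrm1 lies at chr7:102441575-102441704, plus strand, Mcm6 at chr1:128359696-128359825, minus strand, and Pcna at chr2:132253171-132253300, minus strand. Cdk1 lies at chr10:69352903-69353032, minus strand, Top2a at chr11:99024180-99024309, minus strand, and Ube2c at chr2:164769809-164769938, plus strand. Prc1 lies at chr7:80294331-80294460, plus strand, and Mki67 at chr7:135716370-135716499, minus strand.
Rrm1: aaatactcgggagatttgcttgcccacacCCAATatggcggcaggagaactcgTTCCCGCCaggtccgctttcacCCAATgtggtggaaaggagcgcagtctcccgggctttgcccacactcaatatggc
Mcm6: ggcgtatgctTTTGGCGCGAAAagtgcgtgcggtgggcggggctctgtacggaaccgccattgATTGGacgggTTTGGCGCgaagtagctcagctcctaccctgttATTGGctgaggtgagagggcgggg
Pcna: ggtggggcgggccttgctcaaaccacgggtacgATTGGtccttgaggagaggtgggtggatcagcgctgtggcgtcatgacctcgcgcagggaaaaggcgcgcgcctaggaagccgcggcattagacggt
Cdk1: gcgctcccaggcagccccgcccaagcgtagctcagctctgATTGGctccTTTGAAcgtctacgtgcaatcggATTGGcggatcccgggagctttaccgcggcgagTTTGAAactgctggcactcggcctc
Top2a: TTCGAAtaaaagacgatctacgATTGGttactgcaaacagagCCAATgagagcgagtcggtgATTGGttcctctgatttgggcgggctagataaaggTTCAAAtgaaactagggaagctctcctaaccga
Ube2c: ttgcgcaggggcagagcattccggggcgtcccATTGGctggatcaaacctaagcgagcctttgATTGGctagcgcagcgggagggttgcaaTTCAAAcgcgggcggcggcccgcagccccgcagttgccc
Prc1: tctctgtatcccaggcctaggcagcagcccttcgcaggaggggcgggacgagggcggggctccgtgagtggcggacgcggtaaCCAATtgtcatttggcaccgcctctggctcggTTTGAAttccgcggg
Mki67: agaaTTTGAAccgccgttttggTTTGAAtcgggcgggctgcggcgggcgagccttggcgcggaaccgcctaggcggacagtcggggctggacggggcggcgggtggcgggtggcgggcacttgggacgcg
The stretches of Rrm1 and Mcm6 carry E2F and CCAAT letters, and that of Pcna a single CCAAT. In Cdk1, Top2a, Ube2c and Prc1 the match nearest to the start is a cell cycle homology match, with CCAAT letters before it, and Mki67 has 2 homology matches and no CCAAT in this stretch. Among the 11 S phase genes with a window, Rrm1 and Mcm6 were the only ones with E2F letters inside the stretch. Ccne1 and Tyms of the S phase genes and Birc5 and Nusap1 of the mitosis genes had none of the letters in the whole window.

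Gene positions here are those of the GENCODE mouse annotation on mm10. Among the S phase genes, Pcna (chr2:132249162-132253314, minus strand), the sliding clamp of DNA polymerase, was the most abundant. Its values were 8.83, 8.76, 7.43, 10.17 and 8.7 across WT 1 to 5, and 9.5, 10.3, 9.41, 9.42 and 9.92 across STAT3cKO 1 to 5. WT 4 lay within the STAT3cKO range and the other WT libraries below it. The means were 8.78 ± 0.97 in WT and 9.71 ± 0.39 in STAT3cKO (SD, n = 5 each), and the difference was 0.93 (SE 0.46, limma adjusted p = 0.477, 95% interval from -0.03 to 1.9). It was 0.59 without WT 3, the lowest library. The slope of Pcna on the hair level was 0.015 (SE 0.037), and STAT3cKO 2, with almost no hair signal, had the highest value of all. Pcna has 2 named pseudogenes (Pcna-ps1 and Pcna-ps2), whose reads the counting could split with it.

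Of the 6 subunits of the MCM helicase, which unwinds DNA at the fork, Mcm3, Mcm4, Mcm6 and Mcm7 had reads in all 10 libraries. Mcm6 spanned 7.63 to 9.35 in WT and 7.58 to 9.06 in STAT3cKO, with a difference of 0.14. For Mcm7 the ranges were 6.21 to 8.44 and 6.82 to 8.35, with a difference of 0.51. The largest difference among the 10 tested S phase genes was that of Mcm4, 2.09 (SE 1.29, limma adjusted p = 0.568, 95% interval from -0.63 to 4.81). It came with a value of 1.26, about a single read, in WT 3, against 5.79 to 8.25 in the other WT libraries and 7.32 to 9.22 in STAT3cKO. Mcm3 was likewise lowest in WT 3, at 2.97, and its difference was 0.93. Mcm2 had no read in WT 1, STAT3cKO 2 and STAT3cKO 3, and Mcm5 none in WT 5 and STAT3cKO 2. Their differences of -1.29 and 0.37 had standard errors of 2.1 and 1.94. Mcm5 had the steepest slope on the hair level among the tested S phase genes, 0.289 (SE 0.145), and Mcm4 the only one below 0, -0.036 (SE 0.107).

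Rrm1 (chr7:102441695-102469771, plus strand), the large subunit of ribonucleotide reductase, which makes deoxynucleotides, had values of 6.41, 7.28, 6.55, 9.63 and 8.24 across WT 1 to 5, and 9.01, 9.07, 8.66, 7.92 and 7.9 across STAT3cKO 1 to 5. The WT libraries spread more widely than the STAT3cKO libraries and enclosed them. With means of 7.62 ± 1.34 in WT and 8.51 ± 0.57 in STAT3cKO (SD, n = 5 each), the difference was 0.89 (SE 0.7, limma adjusted p = 0.662, 95% interval from -0.58 to 2.36), and it was 0.74 (SE 0.69, limma adjusted p = 0.686) with the hair level and -0.08 when STAT3cKO 2 and WT 3 were also left out. Rrm2, the small subunit, whose supply limits the enzyme in S phase, fell below the filter. It was at 8.27 in WT 4 and at 8.66, 8.78 and 6.99 in STAT3cKO 1, 3 and 5, and at 0.00 to 2.83 in the other 6 libraries. The slope of Rrm1 on the hair level was 0.074 (SE 0.055). Tyms, thymidylate synthase, ranged from 5.66 to 8.72 in WT and from 7.28 to 8.18 in STAT3cKO, with a difference of 1.04.

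Of the cyclins that open S phase, Ccne2 was detected throughout and Ccne1 was not. Ccne2 (chr4:11191351-11204779, plus strand) had values of 9.05, 7.71, 9.56, 8.92 and 9.09 across WT 1 to 5, and 8.71, 8.77, 7.85, 7.86 and 8.43 across STAT3cKO 1 to 5. The groups overlapped, and neither WT 4 nor STAT3cKO 1, 3 and 5 stood out. The means were 8.87 ± 0.69 in WT and 8.32 ± 0.45 in STAT3cKO (SD, n = 5 each), the slope on the hair level was 0.018 (SE 0.040), and the difference was -0.54 (SE 0.48, limma adjusted p = 0.7, 95% interval from -1.56 to 0.47). Its exons overlap those of Ints8 on the other strand, and whether the counting used strand is not stated. Ccne1 had no read in 4 libraries, 2 of each group, and reached 7.11 in STAT3cKO 3. Cdc6, which loads the helicase onto origins, had no read in 4 libraries and a highest value of 6.10 in WT 5.

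Among the mitotic kinases and cyclins, Cdk1 (chr10:69335146-69352938, minus strand), the kinase that drives entry into mitosis, came nearest to a difference between genotypes. Its values were 7.14, 5.63, 6.74, 10.74 and 8.24 across WT 1 to 5, and 9.69, 9.86, 10.47, 8.46 and 9.81 across STAT3cKO 1 to 5. All 5 STAT3cKO libraries lay above WT 1, 2, 3 and 5, and WT 4 lay above all of them. The means were 7.7 ± 1.94 in WT and 9.66 ± 0.73 in STAT3cKO (SD, n = 5 each), and the difference was 1.96 (SE 0.76, limma adjusted p = 0.341, 95% interval from 0.34 to 3.58). With the hair level it was 1.65 (SE 0.61, limma adjusted p = 0.273). Without WT 4 the difference was 2.72 and Cdk1 passed the threshold (limma adjusted p = 0.029), where 1.794% of all tested genes were called. WT 4 was the only WT library with a hair level above 11. With WT 4 left out and the hair level in the fit, the difference was 2.38 (limma adjusted p = 0.0977). Cdk1 did not pass under any other alternative. There the difference without the hair level ranged from 0.59 to 2.75 and limma adjusted p from 0.175 to 0.816. The lowest of these differences, 0.59, came with the mean of Krt5 and Krt14 in the fit (adjusted p = 0.794). STAT3cKO 2, whose hair level was 0.06, had Cdk1 at 9.86, within the range of the STAT3cKO libraries with a hair level above 11. With STAT3cKO 2 and WT 3 left out and the hair level in the fit, the difference was 0.71.

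Cyclin A2 and the B cyclins, the partners of Cdk1, did not share this order. Ccna2 ranged from 4.0 (WT 3) to 9.75 (WT 4) in WT and from 8.01 to 9.53 in STAT3cKO, with a difference of 0.78 and the smallest slope among the tested mitosis genes, 0.028 (SE 0.074). Ccnb1 had values of 7.1, 5.47, 4.82, 8.84 and 8.63 across WT 1 to 5, and 9.08, 0.06, 6.59, 1.67 and 8.61 across STAT3cKO 1 to 5. It was near or at no read in STAT3cKO 2 and 4, the libraries of that group with a hair level below 1, and its difference was -1.77 (SE 1.82). For Ccnb2 no read was found in WT 5, STAT3cKO 2 and STAT3cKO 4, and its difference was -1.5 (SE 2.08). The kinase Plk1, which acts at centrosomes and kinetochores, had a difference of -0.71 and Aurka, the centrosomal Aurora kinase, of -0.88. Both were without a read in STAT3cKO 2 and WT 3. Aurkb, the Aurora kinase of the centromere, fell below the filter, with no read in 4 libraries and 6.48 at most.

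Of the genes of the spindle checkpoint and of the ubiquitin ligase that ends mitosis, Ube2c (chr2:164769898-164778822, plus strand), the ligase's E2 enzyme, was the most abundant. Its values were 0.0, 5.81, 0.06, 8.77 and 7.27 across WT 1 to 5, and 7.34, 0.06, 9.19, 7.05 and 7.71 across STAT3cKO 1 to 5. No read was found in WT 1, WT 3 and STAT3cKO 2, and the other libraries lay between 5.81 and 9.19, with STAT3cKO 3 and WT 4 the highest. With means of 4.38 ± 4.11 in WT and 6.27 ± 3.57 in STAT3cKO (SD, n = 5 each), the difference was 1.89 (SE 2.12, limma adjusted p = 0.763, 95% interval from -2.57 to 6.35). The sign turned with Krt5 and Krt14 in the fit, to -0.84. Ube2c shares exon bases with Tnnc2, a troponin gene of skeletal muscle on the other strand. The 7 muscle markers summed to 17628 to 276813 in WT and 5328 to 154802 in STAT3cKO. Their mean was 10.81, 12.42 and 12.88 in WT 1, WT 3 and STAT3cKO 2, where Ube2c had no read, and 9.05 to 14.67 in the other libraries. Whether reads of Tnnc2 were counted to Ube2c was not tested. Cdc20, the activator of the ligase, had the steepest slope of the tested cell cycle genes, 0.352 (SE 0.144), and a difference of 0.75. Its highest values were 8.04 in STAT3cKO 5, 7.09 in STAT3cKO 1 and 7.09 in WT 4. The checkpoint kinases Bub1 and Bub1b fell below the filter. Bub1 had reads in WT 4 (5.29) and STAT3cKO 3 (7.47) only, and Bub1b lacked reads in 4 libraries.

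Transcripts of several spindle proteins had no read in some libraries. Prc1 (chr7:80294450-80316259, plus strand), which bundles microtubules of the midzone, had values of 5.51, 6.82, 7.71, 8.41 and 0.08 across WT 1 to 5, and 7.52, 0.06, 8.9, 6.31 and 7.77 across STAT3cKO 1 to 5. Its missing libraries were WT 5 and STAT3cKO 2, and the remaining 8 lay between 5.51 and 8.90. The difference was 0.41 (SE 1.92, limma adjusted p = 0.957, 95% interval from -3.63 to 4.44), and its sign changed with the libraries and covariates used. Nusap1 (chr2:119618298-119651244, plus strand), which stabilises spindle microtubules near chromosomes, had values of 0.0, 5.72, 0.06, 9.11 and 0.08 across WT 1 to 5, and 7.51, 0.06, 7.58, 6.12 and 7.55 across STAT3cKO 1 to 5. It had no read in WT 1, 3 and 5 and STAT3cKO 2, and WT 4 was the highest of the other 6 libraries. The difference of 2.77 (SE 2.17, limma adjusted p = 0.661, 95% interval from -1.78 to 7.33) was the largest among the mitosis genes and lay within its error. Both genes overlap others on the opposite strand, Prc1 with Rccd1 and Nusap1 with Oip5. Hmmr, a spindle protein, had no read in WT 1 and STAT3cKO 3, and its difference was -0.04. The motor Kif20a was missing in WT 3 and STAT3cKO 4 and had a difference of -0.53. Kif11, the motor that pushes spindle poles apart, had no read in 6 libraries, and Tpx2, an activator of Aurka, in 2, and both fell below the filter. WT 4 held the highest Kif11 and Tpx2 values of all libraries, 7.66 and 8.92.

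Of the genes that act on chromatin and centromeres, Top2a (chr11:98992943-99024189, minus strand), the topoisomerase that untangles sister chromatids, was the most abundant of the mitosis genes. Its values were 8.89, 8.03, 8.05, 11.12 and 8.27 across WT 1 to 5, and 10.74, 7.63, 9.93, 8.61 and 10.84 across STAT3cKO 1 to 5. WT 4 and STAT3cKO 1, 3 and 5 lay at 9.93 or higher, and the other 6 libraries at 8.89 or lower. The slope on the hair level was 0.161 (SE 0.039), which is the slope farthest from 0 in units of its standard error among the 27 genes. The group means were 8.87 ± 1.31 in WT and 9.55 ± 1.4 in STAT3cKO (SD, n = 5 each), and the difference of 0.68 (SE 0.71, limma adjusted p = 0.75, 95% interval from -0.84 to 2.19) became 0.35 (SE 0.48, limma adjusted p = 0.794) with the hair level in the fit. Mki67 (chr7:135689784-135716361, minus strand), the protein coating mitotic chromosomes and the usual marker of dividing cells, had values of 7.75, 5.98, 1.91, 9.36 and 7.26 across WT 1 to 5, and 8.88, 6.32, 8.55, 8.16 and 9.0 across STAT3cKO 1 to 5. The 4 libraries with a hair level above 11 lay at 8.55 to 9.36, STAT3cKO 4 reached 8.16 at a hair level of 0.39, and WT 3 had 1.91 despite a hair level of 8.13. The means were 6.45 ± 2.81 in WT and 8.18 ± 1.09 in STAT3cKO (SD, n = 5 each), and the difference was 1.73 (SE 1.23, limma adjusted p = 0.622, 95% interval from -0.86 to 4.32), or 0.60 without WT 3.

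Cenpf, a kinetochore protein of late G2, was highest in WT 4 (9.85), STAT3cKO 1 (8.84) and STAT3cKO 5 (8.42), with a slope of 0.230 (SE 0.087) and a difference of 0.27. Birc5, the survivin subunit of the chromosomal passenger complex, ranged from 1.91 in WT 3 to 9.76 in WT 4 and had no read in STAT3cKO 2, with a difference of 0.18. Cenpa, the histone variant of centromeres, departed from this order: its highest value, 9.0, was in STAT3cKO 2, where most mitosis genes were missing, and it had no read in WT 5 and STAT3cKO 4. Its difference was 1.63 (SE 2.04). Exons of Mcm7, Ccna2, Plk1, Cdc20 and Kif20a also overlap a gene on the other strand, and Tyms, Ccnb1 and Ccnb2 have named pseudogenes, so part of their reads could be counted elsewhere.

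**Figure D5:**
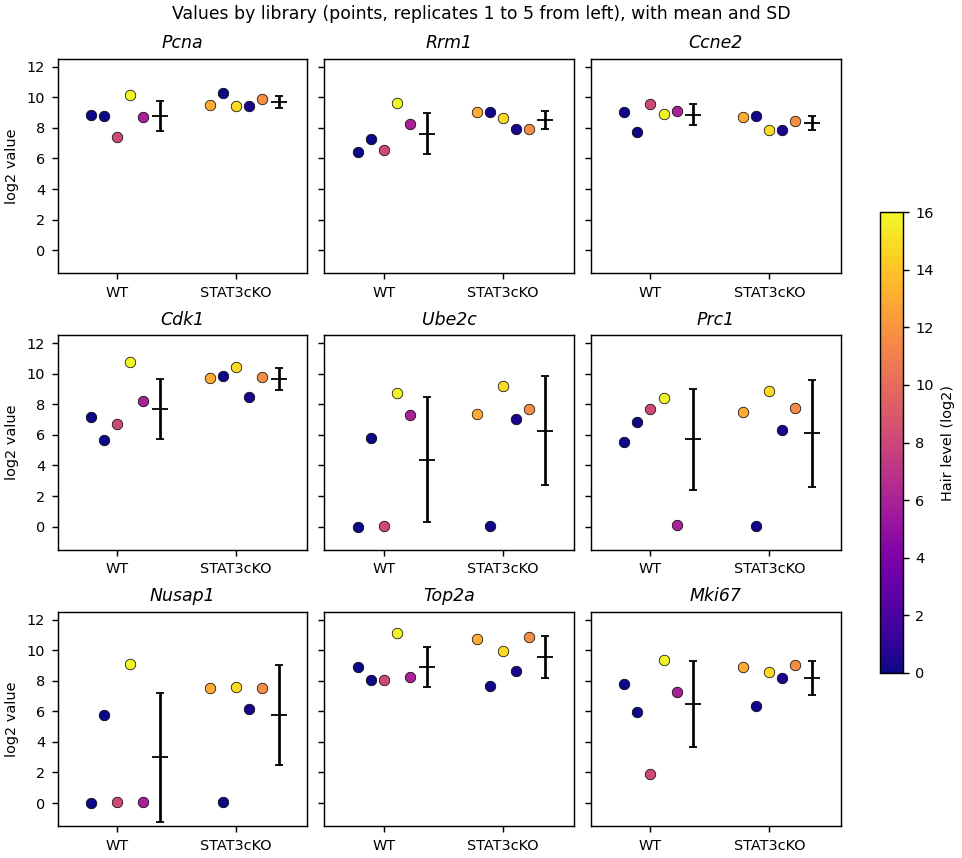
Deposited values (log2) of 9 cell cycle genes in WT and STAT3cKO libraries, 1 point per library (replicates 1 to 5 from left) coloured by hair level, with mean and SD at the right of each group. In Cdk1 and Top2a the brightest points are high in both groups, and the low points at 0 in Ube2c, Prc1 and Nusap1 are libraries without a read.

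The 8 genes below the filter were compared 1 by 1 with an exact permutation test over all assignments of 5 of 10 libraries, whose smallest p is 0.00794. Their two-sided exact p-values ran from 0.294 (Rrm2, a difference of 2.91) to 0.849 (Aurkb, 0.62). Bub1b, at -1.70, was the only one with a lower mean in STAT3cKO. Each of the 8 lacked a read in at least 2 libraries. No difference between the genotypes was detected for them.

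Other genes of the cell cycle were read in the same fits from lists chosen for their roles. Of 40 further replication genes 33 were tested, 0 were called in either fit, and 18 differences lay above 0 with a median of 0.25. Of 50 further mitosis genes 30 were tested, 0 were called, and 23 lay above 0 with a median of 1.30. Of 22 regulators (D cyclins, their kinases, E2F and Rb family genes and others) 16 were tested, 0 were called, and 8 lay above 0 with a median of 0.02. Of 15 brakes (inhibitors of cyclin-dependent kinases and others) 14 were tested, 0 were called, and 6 lay above 0 with a median of -0.29. With the hair level, medians were 0.004 for replication genes (18 of 33 above 0) and 1.07 for mitosis genes (22 of 30). They were -0.025 for regulators (8 of 16), -0.362 for brakes (6 of 14) and -0.18 for all tested genes. Over all tested genes 0.988% were called, and 1.34% with the hair level. Without it, 43.8% of their differences lay above 0, with a median of -0.16. Median slopes on the hair level were 0.181 for replication genes (28 of 33 above 0), 0.130 for mitosis genes (26 of 30), 0.055 for regulators (13 of 16) and -0.033 for brakes (5 of 14). Over all tested genes the median slope was 0.013, with 56.9% above 0. Over all genes with a read, whether or not they passed the filter, the medians were 0.182 for the further replication genes and 0.186 for the further mitosis genes, against 0.074 for the 13 S phase and 0.243 for the 22 mitosis genes above. The difference between the lists was not tested.

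By the lowest unadjusted p in each list, 8 genes are named. Hjurp, the chaperone that deposits Cenpa at centromeres, had values of 5.85, 6.54, 7.64, 7.97 and 7.78 across WT 1 to 5, and 9.52, 9.91, 9.32, 9.9 and 8.27 across STAT3cKO 1 to 5. All STAT3cKO values lay above all WT values, where 3.42% of all tested genes had groups without overlap, in either direction. Hjurp was picked by its low p, so this order adds no support. The difference of Hjurp was 2.23 (SE 0.59, limma adjusted p = 0.0883, 95% interval from 0.98 to 3.48), or 2.18 (SE 0.61, limma adjusted p = 0.096) with the hair level. Its slope was 0.023 (SE 0.049). Kif2c, a microtubule-depolymerising kinesin, had no read in 4 of 5 WT libraries and 7.66 in WT 4, against 7.06 to 9.27 in STAT3cKO, with a difference of 6.54 (SE 1.76, limma adjusted p = 0.091, 95% interval from 2.84 to 10.25). Both missed the threshold. The maintenance methyltransferase Dnmt1 differed by 2.4 (adjusted p = 0.431) and the licensing factor Cdt1 by 3.71 (adjusted p = 0.458) in limma. Dnmt1 was lowest in WT 3, at 1.91, against 6.74 to 8.61 in the other WT libraries. Cdt1 had no read in WT 1 and WT 5, and 9.39 in WT 3. For the D cyclins the differences were 0.86 for Ccnd1 and -0.82 for Ccnd3, and for the antiproliferative gene Btg2 and cyclin G1 (Ccng1), both targets of p53, 0.79 and -0.73, with limma adjusted p-values of 0.452 to 0.578.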

How the data were processed

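The deposited tables, 1 for each library, give a log2 value for each of 23282 entries. Per the submitters' processing notes, Bowtie2 and bedtools were used on build mm10. The sources used here do not give the annotation, the use of strand, the scaling or the handling of duplicates. No header names a unit. The scale, log2 of scaled reads plus a pseudocount of 1, was inferred from the values, as were the depths of 7168707 to 18541827 reads. Depth covers counting error only, since no molecular identifiers are named. Differences of genes with few or no reads in some libraries depend on the pseudocount. That of Nusap1, without the hair level, was 2.77 as deposited, 1.60 with a pseudocount of 8 and 0.88 with 32.

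Genes with a value of at least 5 in at least 5 libraries (11536) entered limma 3.58.1 (R 4.3.3) with a mean trend and robust estimation, with Benjamini-Hochberg adjustment and a threshold of 0.05. A second fit added the hair level and left out Krt71 and Krt25 (11534 genes). The method was tested on simulated data. Single values were compared by exact permutation. The 35 genes, the other lists and the tests were chosen with earlier results of these data known. Values in every library are given for the genes of highest mean and of lowest unadjusted p in each role class and for Mki67. From each of the other cell cycle lists the 2 of lowest unadjusted p are named, with values in every library for Hjurp only. Results for further genes in the text give ranges or differences. Alternatives varied the filter, scaling, pseudocount, model, libraries and covariates.

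Promoter windows come from RefSeq (GRCm38.p6), and gene positions from GENCODE on mm10. Figures used matplotlib 3.10.9 under Python 3.11.15.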

Additional observations from a re-analysis of the deposited data

Results flagged for a closer look

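Within each genotype, a gene's values were searched for a library whose gap to the nearest of the others exceeded 0.71 of the group's range, in 72 groups of 5 libraries (35 genes and the hair level). In 14 groups a library stood out. Chance flags about 1 in 20 groups of independent, normally spread values, but these genes share libraries and many hold values without a read, so the 14 cannot be read against that rate. WT 4, with the highest hair level, was the highest WT library for Mcm6 (9.35), Top2a (11.12), Bub1 (5.29) and Kif11 (7.66), and for Bub1 and Kif11 the other 4 WT libraries had no read. STAT3cKO 3 was the highest STAT3cKO library for Bub1 (7.47), where the other 4 had no read. STAT3cKO 2 was the lowest STAT3cKO library for Mcm5 (0.06), Birc5 (0.06), Ube2c (0.06), Nusap1 (0.06) and Tyms (7.28), with no read for all of these but Tyms. WT 3 was the lowest WT library for Ccna2 (4.0) and Kif20a (0.06). WT 1 had no read of Mcm2 (0.0), and STAT3cKO 3 none of Hmmr (0.01), which the other libraries of their groups carried.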

How the results depend on the processing

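The count of genes called over the whole table depended on the processing. The count of cell cycle genes called was 0 under every alternative but the fit without WT 4 and without the hair level. There it was 1 (Cdk1) of 27, against 1.794% of all tested genes. In all, 114 genes were called (61 higher and 53 lower in STAT3cKO), and 115 with equal library totals (76 higher and 39 lower). The count was 176 after quantile normalization, 198 with a pseudocount of 32, 44 without trend and robust estimation, 375 with array weights, 49 with Krt5 and Krt14 as covariate, 174 in the deeper and 16 in the shallower libraries, and 61 to 207 with a library left out. With the hair level in the fit it was 154, and 244, 33, 373, 15, 0 and 63 with a pseudocount of 32, without trend and robust estimation, with array weights, with Krt5 and Krt14, and in the deeper and shallower libraries. It was 267 with depth as a term, and 99 to 167 with a library left out. The deeper set holds 4 libraries, which leaves few degrees of freedom beside genotype and hair level.

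Without the hair level, the median difference ran from 0.16 to 1.24 for the S phase genes and from -1.33 to 1.11 for the mitosis genes (0.24 to 1.03 and -0.43 to 0.60 with the hair level). Without the hair level, Pcna, Rrm1, Ccne2, Cdk1, Nusap1 and Mki67 kept their sign under the alternatives run. The median S phase slope was -0.007 with Krt5 and Krt14, and the number of slopes above 0 was 5 of 10 there and 5 of 10 in the deeper libraries (6 to 10 with a library left out). The median mitosis slope was 0.145 with Krt5 and Krt14, 0.376 with depth as a term and 0.350 with the inner root sheath list as hair level (0.196, without WT 4, to 0.283 with a library left out). Mitosis slopes above 0 numbered 10 of 10 under the stricter filter and 13 of 17 with Krt5 and Krt14. They numbered 13 to 17 of 17 with a library left out. Over all tested genes the share above 0 was 54.4% under the stricter filter, 53.8% with Krt5 and Krt14 and 53.4% without WT 4. In the deeper libraries it was 50.4%. The cause was not tested. Signs turned, in genes far from the threshold, for Ube2c (-0.84), Prc1 (-0.50) and Top2a (-0.61) with Krt5 and Krt14, and for Prc1 with a library left out (-1.0 to 1.92). With the hair level they turned for Mki67 (-0.20) and Prc1 (3.33) with Krt5 and Krt14, and for Rrm1 (-0.08) and Prc1 (1.82) without STAT3cKO 2 and WT 3. They turned for Prc1 with array weights (0.26) and in the deeper (0.09) and shallower libraries (0.49), and with a library left out for Ube2c (-0.13 to 2.59) and Prc1 (-1.55 to 1.33).

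Replicate numbers gave no sign of pairing: libraries of the same number had correlations of their deviations from -0.155 to 0.016, and none was closest to its own number. With the replicate block, 66 genes were called, and 97 with the hair level, with 0 cell cycle genes in both, and the median S phase slope was 0.085. Alternatives added after seeing the data were the depth term, the cell cycle genes with a mean of at least 7, and the counts without WT 3 or STAT3cKO 2. A gene near 1 read per library cannot be told from an absent one at these depths.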
